A study of Mus musculus with 3 samples.

Results

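The luminal and basal keratins were followed in NMuMG cells, an epithelial line derived from the mouse mammary gland. The 10 genes were Krt7, Krt8, Krt18 and Krt19, which mark the luminal layer of the gland, Krt5, Krt14, Krt15 and Krt17, which mark its basal layer, and Krt20 and Krt80, which belong to other epithelia. They were taken by gene symbol from the 19935 genes with a probe set of their own on an Affymetrix GeneChip array, and each had 1 such probe set. A total of 3 arrays were hybridized. The mock array (n = 1) held cells carrying the empty pCAGIP vector. The MAFK arrays (n = 2) held stable clone 4 and stable clone 10, which carry FLAG-tagged MafK (pCAGIP-FLAG-MafK). All cells were kept in medium with serum and puromycin. MAFK belongs to the small MAF proteins, which bind DNA through a basic leucine zipper and carry no transactivation domain. Each MAFK line is a clone and mock is not labelled as one, so an effect of MAFK and an effect of cloning cannot be told apart. Separate cultures or extractions are not stated, and the p-values cover the spread between arrays, which may be technical.

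Keratins are the intermediate filament proteins of epithelial cells, and each filament is assembled from type I keratins paired with type II keratins. Krt8 (type II) pairs with Krt18 and Krt19 (type I) in simple epithelia and in luminal mammary cells, and Krt5 (type II) pairs with Krt14 (type I) in basal cells of the gland and of the epidermis. The filaments are anchored at desmosomes and hemidesmosomes, and vimentin, the intermediate filament protein of mesenchymal cells, often accompanies or replaces keratins in cultured epithelial cells. The members lie on 2 chromosomes in mouse: 5 of them, Krt14, Krt15, Krt17, Krt19 and Krt20, in the type I cluster on chromosome 11, and 5, Krt5, Krt7, Krt8, Krt80 and the type I gene Krt18, in the type II cluster on chromosome 15.

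Values are log2 RMA expression, a background-corrected and quantile-normalized array intensity summarised per probe set. The array medians were 6.89 for mock, 6.92 for clone 4 and 6.93 for clone 10. A difference of 1 on this scale is 2-fold. The words rose and fell are kept for genes with both clones at least 2-fold from mock in the same direction and, in limma's moderated test, an adjusted p (Benjamini-Hochberg over all genes, two-sided) under 0.05. Median polish, the summary step of RMA, can return equal values, and 34.3% of genes had the same value on all 3 arrays. An equal value on the arrays is therefore common on this scale and is given as a reading, not as proof that the transcript did not differ. The number of arrays limits the precision, since the 1 mock array shows no spread of its own and is taken to vary as the clones do.

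Among the 10 keratins, Krt80 rose in MAFK cells and no member fell. Krt18 and Krt14 read lower in both clones without passing the test, Krt8 read slightly lower, Krt7 and Krt19 read slightly higher, and Krt5, Krt15, Krt17 and Krt20 had the same value on all arrays. In bulk RNA, fewer cells with a transcript and less of it per cell cannot be told apart. Over all genes 1.16% rose or fell, 0.401% rising and 0.762% falling. At least 2-fold apart in both clones were 1 of the 10 members, higher, and 3.0% of all genes, with 1.19% of all genes higher and 1.81% lower. The median difference of the members was 0 in both clones, as it was over all genes. Of the members 3 lay above mock in both clones, 3 lay below and 4 were equal, against 33.7%, 17.9% and 34.3% of all genes. At an unadjusted limma p under 0.05 stood 1 member with a higher value (Krt80) and 3 with a lower one (Krt8, Krt14 and Krt18), against 9.2% of all genes with a higher and 8.26% with a lower value. After a second quantile normalization these counts were 1 and 5 members, with 3687 and 4279 of the 19935 genes.

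**Figure D1:**
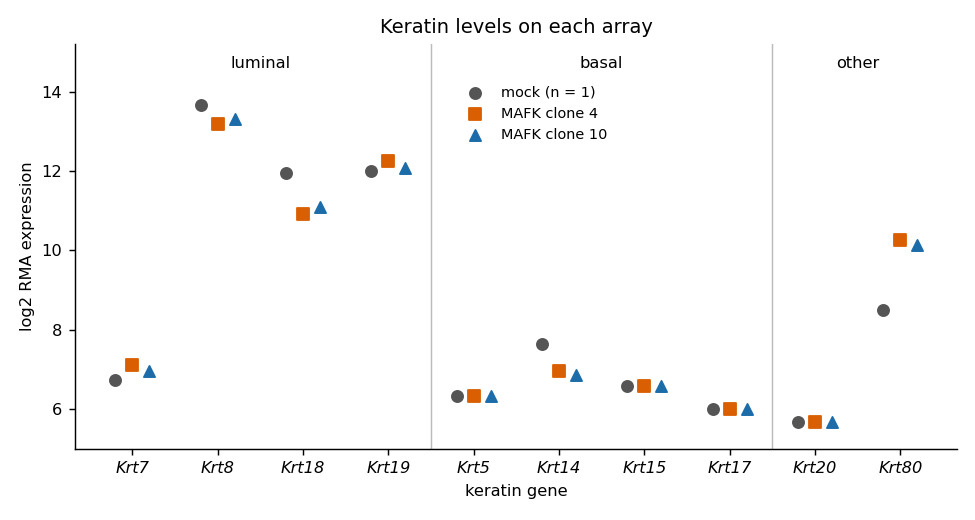
Log2 RMA expression of the 10 keratins (vertical axis) on the mock array (circle), MAFK clone 4 (square) and MAFK clone 10 (triangle), 1 point per array and no error bars. Krt80 stands at 8.49 in mock and above 10 in both clones, Krt18 and Krt14 stand lower in both clones, and 4 genes have equal values on the arrays.

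Krt80, a type II keratin that in epidermis and other epithelia appears with differentiation, read 8.49 on the mock array, 10.25 in clone 4 and 10.13 in clone 10. Both clones lay well above mock and close to each other. The mean of the clones was 10.19 ± 0.08 (SD, n = 2), a rise of 1.70 ± 0.09 (SE) on the log2 scale or 3.24-fold, with a limma adjusted p of 0.0434. The 95% interval of the difference ran from 1.41 to 1.99. Intervals here and below are per gene and not adjusted for the number of genes, so 1 that leaves out 0 can stand beside an adjusted p above 0.05. Their width rests on the spread of the 2 clones and limma's prior, with no spread from mock. The adjusted p was near the threshold, and under the other settings tried it ran from 0.0282 to 0.0488. Its measured neighbours on chromosome 15 by the gene order of assembly GRCm38.p6 lay closer to mock: Atg101 and Smim41 on one side differed by 0.12 and 0.24 in clone 4 and by 0.06 and 0.24 in clone 10, and Krt7 on the other side by 0.38 and 0.21. Over the 748 genes of chromosome 15 the median difference was 0 in both clones, and 11 were at least 2-fold higher and 18 lower in both clones.

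The non-keratin genes whose pair of clone differences lay nearest to those of Krt80, by Euclidean distance over the 2 clones, were H1f1, Osmr and Traf1. H1f1 encodes a linker histone, Osmr the receptor of oncostatin M, and Traf1 an adaptor of TNF receptors. Their distances were 0.0544, 0.0567 and 0.0626 on the log2 scale. H1f1 was 3.25-fold higher than mock, Osmr 3.33-fold and Traf1 3.24-fold. H1f1 and Osmr passed limma (adjusted p = 0.0346 and 0.0376) and Traf1 did not (adjusted p = 0.0605). These genes were picked for their closeness to Krt80, so fold changes near its own follow from the choice and are no separate result. The likeness rests on 2 differences that share the mock array.

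The values of the luminal keratins lay on both sides of mock. Krt8 and Krt18, partners in the filament and neighbours in the genome, both read lower with MAFK, whereas Krt7 and Krt19 read slightly higher. None of the 4 passed the test, and their median lay at -0.12 from mock for clone 4 and at -0.14 for clone 10.

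Krt18, the type I partner of Krt8, read 11.95 on the mock array, 10.92 in clone 4 and 11.08 in clone 10. Both clones were below mock, and clone 4 was 2.05-fold lower while clone 10 was 1.82-fold lower, which is short of the 2-fold threshold. The mean difference was -0.95 ± 0.11 (SE) with a 95% interval from -1.30 to -0.60 and a limma adjusted p of 0.0972. Krt8, the type II keratin of simple epithelia, read 13.67 on the mock array, 13.18 in clone 4 and 13.31 in clone 10. Its values stood in the same order over the arrays as those of Krt18, with a difference from mock of -0.43 ± 0.10 (SE), a 95% interval from -0.74 to -0.12 and a limma adjusted p of 0.203. Whether Krt18 and Krt8 differed in the size of their shift was not tested. On the side of Krt18 away from Krt8, Eif4b, a translation initiation factor gene, read 0.10 above mock in each clone and Tns2, a focal adhesion gene, read 0.59 and 0.82 above. Krt78, on the far side of Krt8, had equal values on the arrays.

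The promoter windows of Krt8 and Krt18 are shown because these adjacent partner genes were the members that read lower together in the luminal group. The windows are RefSeq's, of assembly GRCm38.p6, and run from 250 bases before to 50 bases after the annotated start, 5′ to 3′ on the gene's strand. Krt8 lies at chr15:102004293-102004592 on the minus strand and Krt18 at chr15:102027966-102028265 on the plus strand. Capitals mark matches to 4 motifs searched on both strands: TATAAA (the TATA box), TGACTCA (the core bound by AP-1), TGACNNNGC (the core of the antioxidant response element, bound by CNC and small MAF dimers) and TGCTGA (a half-site of the MAF recognition element).
Krt8: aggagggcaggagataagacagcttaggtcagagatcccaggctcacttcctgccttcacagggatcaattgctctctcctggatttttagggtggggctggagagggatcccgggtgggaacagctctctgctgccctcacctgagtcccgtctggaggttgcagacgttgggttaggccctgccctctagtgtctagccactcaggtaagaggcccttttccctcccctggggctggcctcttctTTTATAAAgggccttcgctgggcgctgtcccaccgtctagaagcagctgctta
Krt18: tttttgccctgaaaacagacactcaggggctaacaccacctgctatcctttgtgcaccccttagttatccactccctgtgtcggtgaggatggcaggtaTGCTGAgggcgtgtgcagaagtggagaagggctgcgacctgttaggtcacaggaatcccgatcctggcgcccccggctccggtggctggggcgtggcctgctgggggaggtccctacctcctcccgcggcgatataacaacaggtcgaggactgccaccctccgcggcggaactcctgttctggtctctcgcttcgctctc
The Krt8 window held TATAAA on both strands, in matches that overlap, with their leftmost base at -1 for the gene's strand and at -3 for the other. The Krt18 window held TGCTGA at -151 and none of the other motifs. Of 32851 promoter windows of this length, 13.6% held TATAAA, 5.20% TGACTCA, 12.4% TGACNNNGC and 19.5% TGCTGA. Windows were found for 6 of the 10 members, Krt5, Krt7, Krt8, Krt14, Krt18 and Krt20. The Krt14 window lay at a start inside the gene model and not at its outer end. TGACNNNGC was matched in the windows of Krt5 and Krt20, and the latter also held TATAAA at -29. The windows of Krt7 and Krt14 matched none of the motifs. A match describes the letters only, and binding was not measured.

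Krt19, a type I keratin of simple epithelia, read 11.99 on the mock array, 12.25 in clone 4 and 12.08 in clone 10. Both clones were above mock by less than 0.3, and the difference of 0.17 ± 0.11 (SE) had a 95% interval from -0.19 to 0.53 (limma adjusted p = 0.694). Krt7, a type II keratin of glandular ducts, read 6.74 on the mock array, 7.11 in clone 4 and 6.95 in clone 10. These values are near the array medians, where RMA compresses differences, and the difference of 0.29 ± 0.11 (SE) had a 95% interval from -0.05 to 0.64 (limma adjusted p = 0.355).

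Of the basal keratins only Krt14 had values that differed between the arrays. Krt14, the type I keratin of basal cells, read 7.65 on the mock array, 6.95 in clone 4 and 6.87 in clone 10. Both clones were lower and close to each other, by 1.63-fold in clone 4 and 1.72-fold in clone 10. The difference was -0.74 ± 0.08 (SE), with a 95% interval from -1.0 to -0.48 and a limma adjusted p of 0.0913. It did not reach 2-fold in either clone. With limma's prior taken from all genes its adjusted p was 0.0384, still without 2-fold. Krt5, the type II partner of Krt14, read 6.34 on every array. Krt15, a keratin of basal progenitor cells, read 6.59 on every array and Krt17, a keratin of stressed and basal epithelium, read 6.01. These 3 readings lie below the array medians, so a low level of the transcripts, and any change in it, was not resolved here. Krt20, a type I keratin of intestinal and urothelial epithelium, likewise read 5.68 on every array. In the 4 genes with equal values the limma fit gave the smallest standard error, 0.0690, because the clones show no spread.

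**Figure D2:**
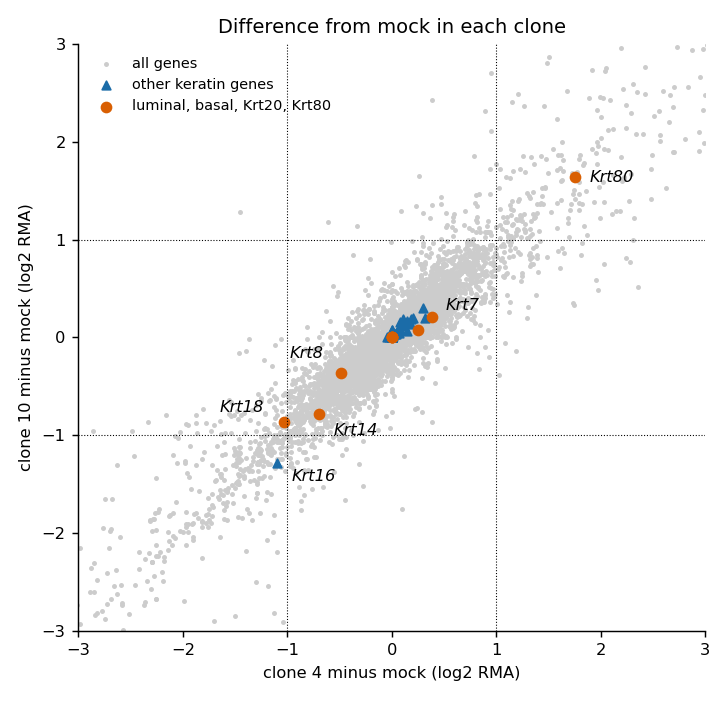
Difference from mock on the log2 RMA scale in clone 4 (horizontal axis) and clone 10 (vertical axis) for all genes (grey), the 10 keratins (orange circles) and the other keratin genes (blue triangles); dotted lines mark 2-fold and 98 genes beyond 3 on either axis are not shown. Krt80 (1.75 and 1.64) lies past the lines at upper right, Krt16 (-1.10 and -1.28) past them at lower left, Krt18 past the line for clone 4 alone, and Krt14 inside the lines; both axes share the mock array.

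Between the clones the members differed little. The difference of clone 10 from clone 4 was 0.16 for Krt18, 0.13 for Krt8, -0.08 for Krt14, -0.11 for Krt80, -0.16 for Krt7 and -0.17 for Krt19. None of the 10 was 2-fold apart between the clones, as were 0.441% of all genes. Each clone was measured on 1 array, so these differences have no replicate check.

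Among the other 42 keratin genes on the array, 22 of type I and 20 of type II, none rose or fell. Krt16, a type I keratin induced in wounded and proliferating epidermis and the genomic neighbour of Krt14, read 7.73 on the mock array, 6.64 in clone 4 and 6.45 in clone 10. Krt16 was 2.28-fold lower, by -1.19 ± 0.12 (SE), with a 95% interval from -1.56 to -0.81 and a limma adjusted p of 0.0820. Its clone readings lie below the array medians, where differences are compressed. It was the 1 other keratin that was 2-fold apart in both clones, against 1.81% of all genes lower. Krt14, Krt16 and Krt17 are close in sequence, and whether their probes also take up each other's transcripts was not analysed here. Krt6b, which is induced with Krt16 in epidermis, read 5.76 on the mock array, 6.08 in clone 4 and 5.97 in clone 10 (limma adjusted p = 0.327), and Krt6a read 5.84, 5.81 and 5.84. Apart from Krt16 and Krt6b, 40 of the 42 lay within 0.3 of mock in both clones. Over the 42 genes, 21 lay above mock in both clones, 1 lay below and 16 were equal on all arrays. The shares over all genes were 33.7%, 17.9% and 34.3%. At an unadjusted limma p under 0.05 stood Krt90 with a higher value and Krt16 with a lower one, against 9.2% and 8.26% of all genes. After a second quantile normalization there were 8 with higher and 11 with lower values, beside 3687 and 4279 of the 19935 genes. With the prior from all genes 5 had an adjusted p under 0.05, all higher, but none of them was 2-fold apart. Under that prior 2240 of the 19935 genes were higher and 1313 lower at the same threshold, so the 5 do not set the keratins apart.

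**Figure D3:**
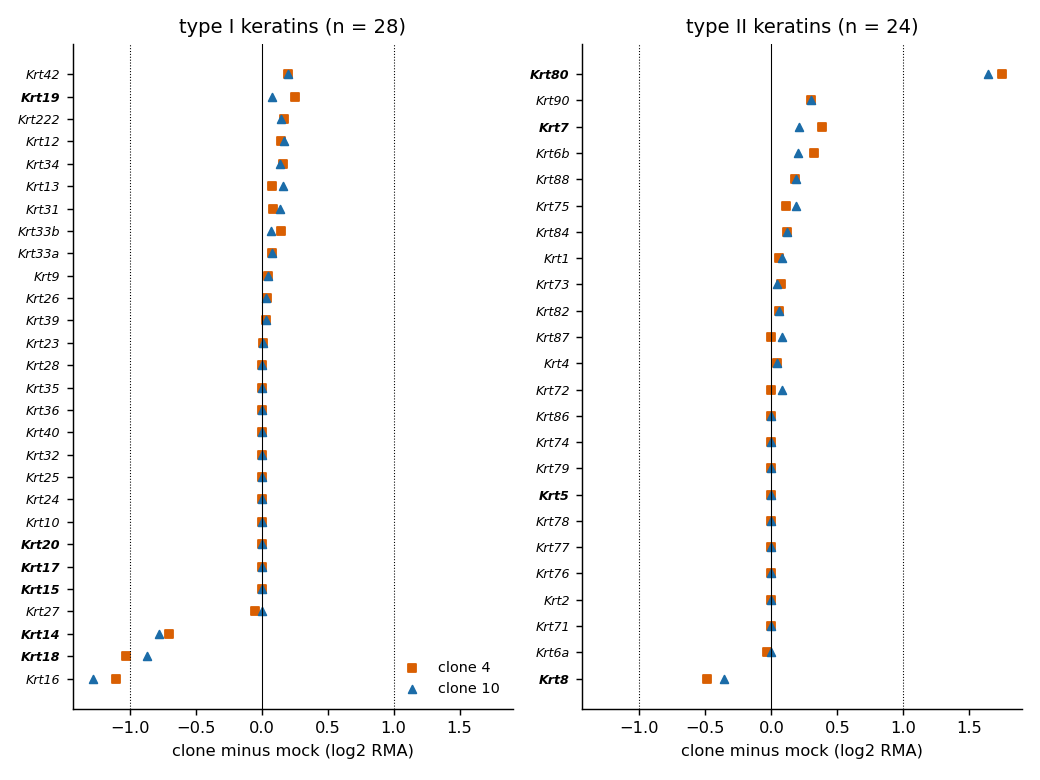
Difference from mock (horizontal axis, log2 RMA) of every keratin gene on the array in clone 4 (squares) and clone 10 (triangles), type I at left and type II at right, members in bold, with 2-fold marked by dotted lines. Krt80 stands apart at the top of type II, Krt16, Krt18 and Krt14 at the foot of type I, and most other keratins lie at or just above 0.

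Genes that anchor or organise keratin filaments were in part lower. Of 14 measured, 2 fell and none rose, where 0.762% of all genes fell and 0.401% rose. Their median difference was -0.24 for clone 4 and -0.60 for clone 10, beside 0 over all genes. At an unadjusted limma p under 0.05 stood 1 with a higher value and 7 with lower ones, where all genes had 9.2% and 8.26%. Fam83h, which encodes a regulator of keratin filament organisation, read 10.16 on the mock array, 8.71 in clone 4 and 8.76 in clone 10. It fell 2.69-fold (limma adjusted p = 0.0410). Pkp1, a desmosomal plakophilin, fell 2.36-fold (limma adjusted p = 0.0498, close to the threshold), and it no longer passed with a robust prior (adjusted p = 0.0535) or with the mean over probe sets (adjusted p = 0.0553). Pkp2 and Dst, the hemidesmosomal linker, were 3.21-fold and 2.16-fold lower without passing (limma adjusted p = 0.138 and 0.0964). The desmosomal linker desmoplakin (Dsp) read 10.54 on the mock array, 9.70 in clone 4 and 9.99 in clone 10, and the linker plectin (Plec) read 10.13 in mock and 9.36 in each clone. Dsg2, a desmosomal cadherin, was the list's member with clones far apart, at 8.06 on the mock array, 8.16 in clone 4 and 6.30 in clone 10. In the opposite direction Eppk1, a keratin-binding plakin, read 7.56 on the mock array, 8.07 in clone 4 and 8.22 in clone 10 (limma adjusted p = 0.153).

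None of 17 transcription factors that act on keratin genes rose or fell, also with the prior from all genes, and the median difference was 0 in both clones. Trp63, the factor of basal epithelial identity that drives Krt5 and Krt14, read 6.68 on every array. This lies below the array medians, so a low level of Trp63, and any change in it, was not resolved here. Grhl3, a factor of epidermal differentiation, read 7.69 on the mock array, 6.94 in clone 4 and 6.99 in clone 10 (limma adjusted p = 0.0835). At an unadjusted limma p under 0.05 Grhl1, Grhl3 and Gata3 had lower values and Ovol1 a higher one, where all genes had 8.26% lower and 9.2% higher.

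Of 11 squamous differentiation genes measured, none rose or fell, also with the prior from all genes, though Cdsn and Sbsn were far from mock in opposite directions. Cdsn, which encodes corneodesmosin, an adhesion protein of the cornified layer, read 7.69 on the mock array, 10.50 in clone 4 and 9.72 in clone 10. It was 5.34-fold higher with a limma adjusted p of 0.147, the clones being 1.72-fold apart. Sbsn, a secreted protein gene of the upper epidermis, was 4.08-fold lower (limma adjusted p = 0.107). Sprr1a, a cornified envelope precursor, read 12.64 on the mock array, 13.44 in clone 4 and 13.48 in clone 10 (limma adjusted p = 0.0723). At an unadjusted limma p under 0.05 stood 2 with higher values and 3 with lower ones, beside the same 9.2% and 8.26% of all genes.

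Of 16 other intermediate filament genes none rose or fell, where 0.401% of all genes rose and 0.762% fell. None did with the prior from all genes either. At an unadjusted limma p under 0.05 stood 0 with higher values and 0 with lower ones, against 9.2% and 8.26% of all genes. The same value on all arrays was read for 9 of the 16 (56.2%), beside 34.3% of all genes. Of these, Des, Gfap, Prph and Nefl lay below the array medians, whereas Lmna and Lmnb2 lay above them. Vim, which encodes vimentin, read 13.39 on the mock array, 13.01 in clone 4 and 13.26 in clone 10. Both clones were thus slightly below mock, with a mean difference of -0.26 (limma adjusted p = 0.566).

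Markers of the mammary layers other than keratins held few genes that rose or fell. Of 14 luminal markers measured, 1 rose and none fell, where 0.401% of all genes rose and 0.762% fell. At an unadjusted limma p under 0.05 stood 3 with higher values (Foxa1, Muc1 and Cldn3) and 1 with a lower one (Gata3), against 9.2% and 8.26% of all genes. Foxa1, a factor of hormone-sensing luminal cells, rose 7.73-fold, from 6.39 in mock to 9.48 in clone 4 and 9.19 in clone 10 (limma adjusted p = 0.0439), but did not pass with a robust prior (adjusted p = 0.0588), a second quantile normalization (0.0621) or the mean over probe sets (0.0516). Epcam, a defining epithelial surface marker, read 5.58 on every array, below the array medians. Of 14 basal markers, 2 fell and none rose, both genes of the hemidesmosome and its ligand: Itgb4 fell 4.90-fold (limma adjusted p = 0.0293) and Lamb3 fell 3.14-fold (limma adjusted p = 0.0346). Of the smooth muscle genes that define myoepithelial cells, none rose or fell. Acta2, Myh11 and Tagln differed from mock by 0 to 0.26, Cnn1 by 0.45 in clone 4 and 0.02 in clone 10, and Mylk by -0.43 and -0.09. Myh11 and Tagln read below the array medians, at 6.37 each in mock, so any change in them was not resolved. Acta2 and Cnn1 read near the medians, at 7.10 and 6.92 in mock, where RMA compresses differences.

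**Figure D4:**
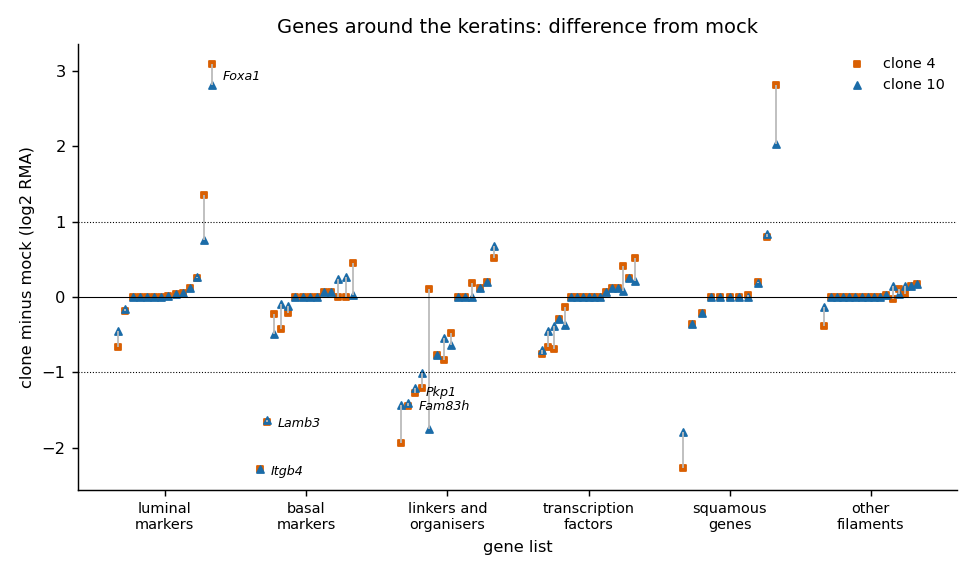
Difference from mock (vertical axis, log2 RMA) of each measured gene of 6 lists in clone 4 (squares) and clone 10 (triangles), joined by a grey line, with 2-fold marked by dotted lines and the names of genes that rose or fell. Fam83h and Pkp1 fell among the linkers, Itgb4 and Lamb3 among the basal markers and Foxa1 rose among the luminal markers, while most points lie near 0.

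Markers of other cells were checked beside these results. The mean level of 8 fibroblast markers was 6.65 on the mock array, 6.94 in clone 4 and 6.99 in clone 10. Their median difference was 0.13 for clone 4 and 0.15 for clone 10, beside 0 over all genes. Of the 8, 1 rose and none fell, where 0.401% of all genes rose and 0.762% fell. At an unadjusted limma p under 0.05 stood 4 with higher values (Pdgfrb, Col1a1, Col1a2 and Col3a1) and 1 with a lower one (Dcn). The shares over all genes were 9.2% and 8.26%. Pdgfrb rose 10.1-fold (limma adjusted p = 0.0461). It did not pass with a robust prior (adjusted p = 0.0624), a second quantile normalization (0.0723) or the mean over probe sets (0.0549). Dcn was 3.91-fold lower without passing (limma adjusted p = 0.0711). Of 6 endothelial, 7 immune and 4 adipocyte markers none was 2-fold apart in both clones, where 3.0% of all genes were. The mean levels of these 3 lists were 5.87, 5.98 and 6.14 in mock. The part of these markers in the keratin results was not tested.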

How the data were processed

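Gene expression was measured on 3 arrays, mock (n = 1) and MAFK clones 4 and 10 (n = 2). Each deposited value is the log2 RMA expression of a probe set as the authors computed it, per the submitters' processing notes; the software version, filters and genome build are not given in the sources used here. Of 28815 probe sets, 21780 carried 1 gene symbol in the platform annotation, 1605 several and 5430 none, and only the first kind was used; no probe set with several symbols named a keratin. Symbols were updated by Entrez identifier through RefSeq of GRCm38.p6, which matched 21689. The probe set with the highest mean stood for each gene.

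Differences were tested with limma 3.58.1 in R 4.3.3 over the 3 arrays, which leave 1 residual degree of freedom. Because 55.5% of genes had equal values in the clones, the prior (1.93 degrees of freedom, SD 0.0694) was taken from the 8873 genes whose clones differed. Differences within 1e-08 were treated as 0. As a check of the code, the fit was run on simulated data with noise drawn for the purpose. That run set no limit on false calls and does not test the calls made here. No other sample columns were present, and the labels give no batch.

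The keratins, the gene lists and the form of the test were chosen with earlier results of these data known. Named were all members, other keratins 2-fold apart in both clones, up to 4 such genes of each list, and Vim, Trp63 and Epcam; any further gene was picked after seeing its values. The marker and transcription factor lists share Gata3, Ehf, Elf3 and Trp63. Of the listed genes, 3 luminal markers (Areg, Lalba and Prlr), Flg, Krt81, Krt83 and Krt85 were not analysed here.

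Alternatives were a prior from all genes, with an intensity trend or robust, a second quantile normalization, dim genes left out (highest value under 6.91), the mean over probe sets or the lowest-mean probe set, a 1.5-fold threshold, and each clone left out.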

Additional observations from a re-analysis of the deposited data

How the results depend on the processing

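Krt80 was called higher and no member was called lower under each of the 8 tested alternatives, but not all of these could change a member. Each member has 1 probe set, so the mean over probe sets and the lowest-mean probe set left the member values as they were. The 1.5-fold threshold reused the main adjusted p, so it could change no member's call. Krt80 lay 1.75 above mock in clone 4 alone and 1.64 in clone 10 alone, where 1 array against 1 allows no test. With a 1.5-fold threshold 2 members (Krt14 and Krt18) were past it and lower in both clones, but neither passed limma. Leaving out a clone gave between 0 and 1 members at least 2-fold lower, the 1 being Krt18 with clone 10 left out. Of the 19935 genes, 424 were at least 2-fold lower with clone 4 left out and 448 with clone 10 left out. The median difference of the members moved from 0 to -0.04 with a second quantile normalization and to -0.13 with dim genes left out, which drops the 4 members with equal values. The second quantile normalization also gave those 4 members differences between -0.04 and -0.02. Luminal markers called higher went from 1 to 0 with a robust prior, a second quantile normalization or the mean over probe sets, and keratin linker genes called lower from 2 to 1 with a robust prior or the mean over probe sets. Over all genes, the prior from all genes called 128 higher and 232 lower against 80 and 152, and the 1.5-fold threshold put 507 higher and 723 lower in both clones against 237 and 361 at 2-fold. The cause of these moves was not tested. No paired analysis was possible because mock was measured on 1 array and the labels give no replicate numbers. Low array signal, with no detection values used here, limits what can be said of Krt5, Krt15, Krt17 and Krt20.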
